A study of Mus musculus with 2 samples.

Results

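The MEF2 transcription factors and the class IIa histone deacetylases form a group of 8 genes in the mouse, Mef2a, Mef2b, Mef2c and Mef2d with Hdac4, Hdac5, Hdac7 and Hdac9. They were taken by name from the 21938 protein-coding genes of GENCODE M21 on chromosomes 1 to 19, X and Y. Open chromatin around them was read from DNase-seq, in which the enzyme DNase I cuts DNA that is not covered by nucleosomes. Tissue came from the cerebral cortex, right side, of males aged 2 months of B6CASTF1/J, the F1 hybrid of C57BL/6J and CAST/EiJ, and the labels name no treatment or genotype contrast. There were 2 libraries, replicate 1 from animal 5 and replicate 2 from animal 6, and the labels give both animals 1 donor record. For each gene, peaks no farther than 1000 bp from one of its annotated starts (promoter peaks) were collected, as were all peaks of the locus (the gene and flanks of 50000 bp) and the footprints inside them. Heights are the deposited peak signal, and peaks are those of the stricter of the peak sets of each library. The design holds 1 group and no contrast, so values are given per library and beside the same values over all genes or all peaks, with no test.

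MEF2 factors bind A/T-rich DNA through a MADS domain and, in cortical neurons, turn calcium signals from synaptic activity into transcription of genes that shape synapses. Class IIa deacetylases have little catalytic activity of their own in vertebrates. They bind MEF2 through a stretch near their N terminus and bring corepressor complexes to its target genes. Phosphorylation by CaM kinases, protein kinase D or salt-inducible kinases makes them bind 14-3-3 proteins and leave the nucleus, and calcineurin acts on the pathway in the opposite direction. DNase-seq reads the chromatin of the genes that encode these proteins and not their RNA, phosphorylation or location in the cell.

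The MEF2 consensus, an A/T core of 10 bases, occurred within strict peaks of both libraries at 5 places in the 8 loci. The sequences below show these with 15 bases on each side, because they place matches to the consensus within open chromatin of these loci. Among the MEF2 genes Mef2a alone holds such a match, and the others lie in Hdac5 and Hdac7. Binding by MEF2 was not measured. Each is written 5′ to 3′ on the strand of the gene, from the C57BL/6J reference (mm10, GRCm38.p6), with the consensus in capitals. The CAST/EiJ allele was not read, so what these bases are on that allele is not analysed here.
Mef2a start, chr7:67372836-67372875, minus strand: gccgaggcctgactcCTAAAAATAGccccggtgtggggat
Hdac5 first start, chr11:102230168-102230207, minus strand: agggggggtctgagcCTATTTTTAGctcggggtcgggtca
Hdac5 second start, chr11:102218968-102219007, minus strand: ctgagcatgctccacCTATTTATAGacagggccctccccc
Hdac7 intron, chr15:97812336-97812375, minus strand: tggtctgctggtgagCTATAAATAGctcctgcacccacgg
Hdac7 intron nearer the start, chr15:97825261-97825300, minus strand: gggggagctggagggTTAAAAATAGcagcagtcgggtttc

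In Mef2a the consensus covered the transcript start itself, from 2 bp before it to base 8 of the transcript. In Hdac5 the consensus lay 17 to 26 bp before the most upstream start and, in a further promoter, 54 to 63 bp before the start at chr11:102218929. The Hdac7 matches lay in introns, 2504 to 2513 bp and 6185 to 6194 bp after the nearest upstream start of the gene. The Mef2a, the Hdac5 and the first listed Hdac7 sequences also fitted a narrower form of the consensus that fixes the outer C and G, and the second Hdac7 sequence did not.

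The promoters below are those of the members with the tallest promoter peak (Hdac4) and of the members with a MEF2 consensus at a start that both libraries held open (Hdac5 and Mef2a). Each gives the 250 bases before the RefSeq start (GRCm38.p6), with the first 8 bases after it for Mef2a. Capitals mark matches on either strand to the MEF2 consensus, the Sp/KLF GC box GGGCGG and the E-box CATCTG. In Hdac5 the GC box and the E-box overlap by 1 base and form 1 run of capitals.
Hdac4 promoter, chr1:92180342-92180591, minus strand: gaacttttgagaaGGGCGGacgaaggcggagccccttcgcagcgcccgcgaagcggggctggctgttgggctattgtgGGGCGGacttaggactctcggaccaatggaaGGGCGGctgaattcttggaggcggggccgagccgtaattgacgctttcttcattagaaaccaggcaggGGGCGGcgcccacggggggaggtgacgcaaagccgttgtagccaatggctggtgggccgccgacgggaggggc
Hdac5 promoter, chr11:102230173-102230422, minus strand: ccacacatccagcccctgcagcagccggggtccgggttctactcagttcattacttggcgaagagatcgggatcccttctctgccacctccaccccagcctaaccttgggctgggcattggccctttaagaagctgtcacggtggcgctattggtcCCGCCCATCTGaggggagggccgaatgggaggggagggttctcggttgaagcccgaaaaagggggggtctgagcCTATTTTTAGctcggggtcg
Mef2a promoter, chr7:67372851-67373108, minus strand: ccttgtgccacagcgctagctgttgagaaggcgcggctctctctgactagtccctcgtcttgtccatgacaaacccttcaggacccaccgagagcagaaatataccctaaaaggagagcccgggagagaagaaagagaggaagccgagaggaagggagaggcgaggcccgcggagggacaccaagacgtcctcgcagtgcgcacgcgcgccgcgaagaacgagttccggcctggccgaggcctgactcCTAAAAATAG

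RefSeq gave 14 promoters for the 8 members. The Hdac4 promoter held 4 GC boxes, the Hdac5 promoter 1, and the Mef2a promoter none in these 250 bases. A GC box was found in 6 of the 14 promoters, 1 each of Mef2b, Mef2c, Mef2d, Hdac4, Hdac5 and Hdac7, and in 32.7% of all 32851 RefSeq promoters of the same length. A MEF2 consensus within the 250 bases before the RefSeq start was found for Hdac5 alone among the members, and in 2.92% of all promoters. The Mef2a match crosses the start and is therefore outside that window in part.

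All 8 members had a promoter peak in both libraries. Of all protein-coding genes, 63.4% had one in replicate 1 and 59.3% in replicate 2, and 12882 of the 21938 had one in both. The members have from 3 (Mef2b) to 27 (Mef2c) distinct annotated starts, and a gene with more starts has more places for a promoter peak. The MEF2 genes and the deacetylases each ran from tall to low promoter peaks, and the order of the 8 genes was the same in both libraries, from Hdac4 and Hdac5 at the top to Mef2c and Hdac7 at the bottom. Between them the tallest promoter peak differed 6.57-fold in replicate 1 and 6.75-fold in replicate 2. Among coding genes with a promoter peak, the median of the tallest promoter peak was 3.02 in replicate 1 (interquartile range 1.66 to 4.61) and 2.17 in replicate 2 (1.26 to 3.19).

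Mef2a, a factor with a broad tissue range that acts in neuronal survival and synapse development, had 1 promoter peak, at chr7:67372801-67373040 across its first start. Its height was 4.81 in replicate 1 and 3.11 in replicate 2 (3.96 ± 1.20, SD, n = 2). That peak ranked at the 77.6th percentile of coding genes with a promoter peak in replicate 1 and at the 73.2nd in replicate 2. The other 5 of its 7 annotated starts, all inside the gene, had no strict peak within 1000 bp in either library.

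Mef2b, the member best known from germinal-centre B cells, had a tall peak at its most upstream annotated start, at chr8:70139261-70139500, with a height of 6.07 in replicate 1 and 3.21 in replicate 2 (4.64 ± 2.02, SD, n = 2). The same peak lay within 1000 bp of the starts of Borcs8 and of Rfxank, so it cannot be given to Mef2b alone. At the start that RefSeq gives for Mef2b, near chr8:70152778, the promoter peak measured 0.914 in replicate 1 and 0.637 in replicate 2. Its rank by the shared peak was the 89.8th percentile in replicate 1 and the 75.5th in replicate 2.

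Mef2c, the MEF2 gene with the best known role in cortical excitatory neurons, had low promoter peaks and none at its most upstream starts (chr13:83504034 to 83504240). Its promoter peaks lay in a cluster of 11 starts between chr13:83523473 and chr13:83524920. There the 3 peaks of replicate 1 measured 1.03, 1.43 and 1.55, and the 3 peaks of replicate 2 measured 0.906, 0.991 and 1.10. The tallest, at chr13:83524689-83524892, averaged 1.32 ± 0.317 (SD, n = 2), at the 22.7th percentile in replicate 1 and the 20th in replicate 2. Of the 27 annotated starts of Mef2c, 11 had a strict peak in each library.

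Mef2d, which is abundant in brain and also serves neuronal survival, had its tallest promoter peak at chr3:88142101-88142460, with a height of 3.55 in replicate 1 and 2.63 in replicate 2 (3.09 ± 0.651, SD, n = 2). These values are above the median of coding genes in both libraries, at the 59th and the 62.4th percentile. A pair of smaller promoter peaks little more than 1000 bp into the gene was found in both libraries, the taller of them at 1.60 in replicate 1 and 1.09 in replicate 2. A further promoter peak at an internal start, chr3:88162326-88162581, was found in replicate 1 at 1.47 and had no strict counterpart in replicate 2.

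**Figure D1:**
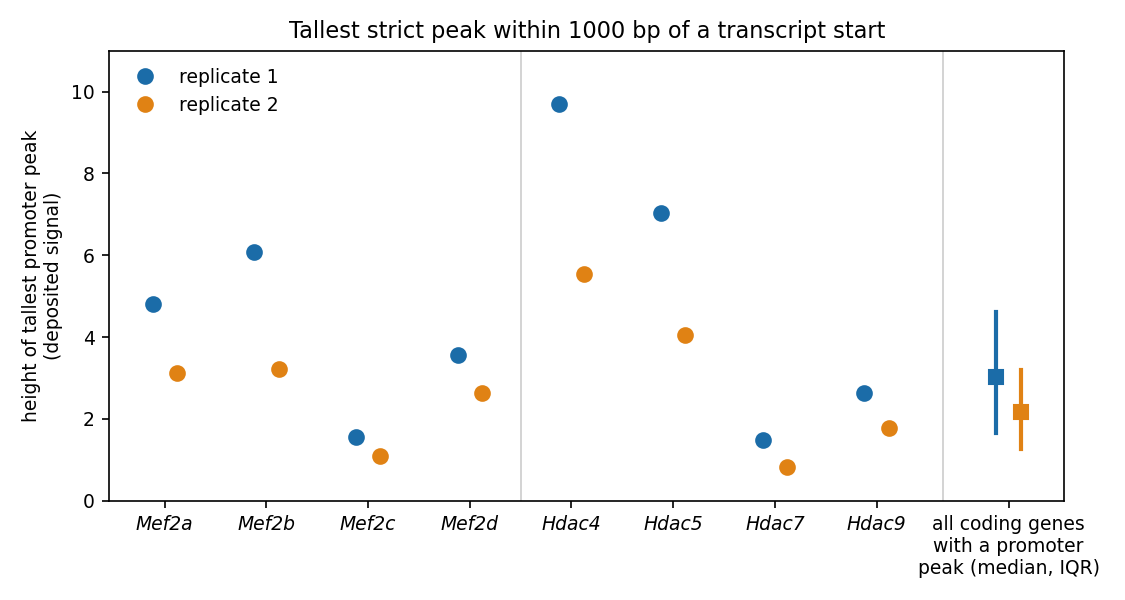
Height of the tallest strict peak within 1000 bp of a transcript start (vertical axis, deposited signal, linear) for each member, with replicate 1 in blue and replicate 2 in orange. Squares and lines at the right give the median and interquartile range over coding genes with a promoter peak. Hdac4 stood highest, at 9.71 and 5.54, and Hdac7 lowest, at 1.48 and 0.822, and each gene was higher in replicate 1.

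Hdac4, a deacetylase highly expressed in brain whose loss impairs memory in mice, had the tallest promoter peak of the 8, at chr1:92180301-92180660. It measured 9.71 in replicate 1 and 5.54 in replicate 2 (7.63 ± 2.94, SD, n = 2), at the 99.4th and the 98th percentile of coding genes with a promoter peak. This is at the start that RefSeq uses, and the peak centre lies 15218 bp inside the gene from its most upstream GENCODE start. The most upstream start itself had a peak of 1.63 in replicate 1 and 0.860 in replicate 2. Replicate 2 had an additional promoter peak of 2.01 beside the tall one, at chr1:92180781-92181060, with no counterpart in replicate 1.

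Hdac5, a deacetylase exported from the nucleus of neurons upon calcium entry, had open chromatin at 3 groups of starts. At the most upstream one, chr11:102230081-102230300, the height was 7.02 in replicate 1 and 4.05 in replicate 2 (5.54 ± 2.10, SD, n = 2). At the second, chr11:102218861-102219120, it was 4.42 in replicate 1 and 3.32 in replicate 2. Both peaks held a MEF2 consensus. The third, chr11:102201481-102201840, measured 1.92 in replicate 1 and 1.50 in replicate 2, and a further promoter peak of 0.795 was present in replicate 1 alone. The tallest ranked at the 94.8th and the 88.3rd percentile.

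Hdac7, best known from endothelium and thymocytes, had the lowest of the 8 values when the tallest promoter peak of each gene was taken. This peak lay at chr15:97831501-97831920, at a cluster of internal starts, and measured 1.48 in replicate 1 and 0.822 in replicate 2 (1.15 ± 0.463, SD, n = 2), at the 21.3rd and the 11.6th percentile. Another Hdac7 promoter peak, of 1.20, at chr15:97830281-97831100, was found in replicate 1 and not in replicate 2. The 4 most upstream starts, between chr15:97844164 and chr15:97844502, had no peak in either library and no base with a false discovery rate under 0.05 within 1000 bp.

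Hdac9, which also gives rise to a short form without the deacetylase domain that represses MEF2, had its tallest promoter peak at an internal cluster of starts, 387704 bp from the most upstream annotated start. At chr12:34529281-34529500 the height was 2.64 in replicate 1 and 1.77 in replicate 2 (2.21 ± 0.613, SD, n = 2), at the 43.1st and the 39.8th percentile. Replicate 1 had 8 promoter peaks in the gene and replicate 2 had 3. The other promoter peaks of replicate 1 ran from 0.526 to 1.39, and those of replicate 2 were 0.607 and 0.968. The most upstream start, at chr12:34917095, had no peak in either library.

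For 3 members (Mef2c, Hdac7 and Hdac9) the promoter peaks were therefore all at internal starts. Counted at the 5′ end of the gene alone, 5 of the 8 members had a peak in each library, against 58.6% of coding genes in replicate 1 and 54.4% in replicate 2. Of the 7 pairs of neighbours in the order of heights, 6 had ranges over the libraries that overlapped, and Hdac9 and Mef2c were the pair that did not. These ranges, like the SDs above, include the difference in height between the libraries. Within each library the order of the 8 genes was the same. Each of the 8 was higher in replicate 1, by 1.35-fold (Mef2d) to 1.89-fold (Mef2b). Over the 98 member peaks of replicate 1 that overlapped a peak of replicate 2, the median ratio of replicate 1 to replicate 2 was 1.42, against 1.38 over all 60789 such peaks. The scale of the deposited heights is not stated, so the difference between the libraries cannot be read as a difference between the animals.

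The base composition of the tallest promoter peaks varied widely. In replicate 1 the central 200 bp of the Hdac7 peak held 80.5% G and C and that of Mef2d 74.5%. The values were 65.5% in Hdac4 and in Mef2c, 63.5% in Hdac5, 63% in Mef2a, 55% in Mef2b and 46.5% in Hdac9. In replicate 2, where the peaks have other bounds, the values were 76% in Hdac7, 75.5% in Mef2d, 64% in Hdac4, 63.5% in Hdac5, 63% in Mef2a, 62.5% in Mef2b, 55% in Mef2c and 46.5% in Hdac9. The median over all peaks near a transcript start was 60.5% in each library. The Hdac9 peak was poorer in G and C than this median in both libraries, the Mef2b peak in replicate 1 alone and the Mef2c peak in replicate 2 alone. The Hdac9 peak of replicate 1 had a CpG observed to expected ratio of 0.186, against a median of 0.679 over all peaks near a start.

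The number of peaks around the genes also differed between members. The 8 gene bodies with their 50000 bp flanks held 161 strict peaks in replicate 1 and 122 in replicate 2. Mef2d had the most, 42 and 30, and Mef2a had 9 in replicate 1 and 8 in replicate 2. The counts were 19 and 17 for Mef2b, 14 and 16 for Mef2c, 21 and 20 for Hdac4, 13 and 13 for Hdac5, and 20 and 11 for Hdac9, each with replicate 1 given before replicate 2. Hdac7 had 23 in replicate 1 and 7 in replicate 2. The median over coding genes was 8 in replicate 1 and 6 in replicate 2. Longer genes have more room for peaks. Per 100 kb the median over coding genes was 5.56 peaks in replicate 1 and 4.56 in replicate 2. Hdac9, which is 869.516 kb long, had 2.06 and 1.13, and Mef2a 3.72 and 3.31, below both medians. Hdac4 had 5.72 and 5.45, little above them, and Mef2c 5.32 and 6.08, below the median in replicate 1 alone. Higher values were those of Mef2b (14.9 and 13.3), Mef2d (32.4 and 23.1) and Hdac5 (9.58 and 9.58). Hdac7 had 15.1 in replicate 1 and 4.61 in replicate 2.

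**Figure D2:**
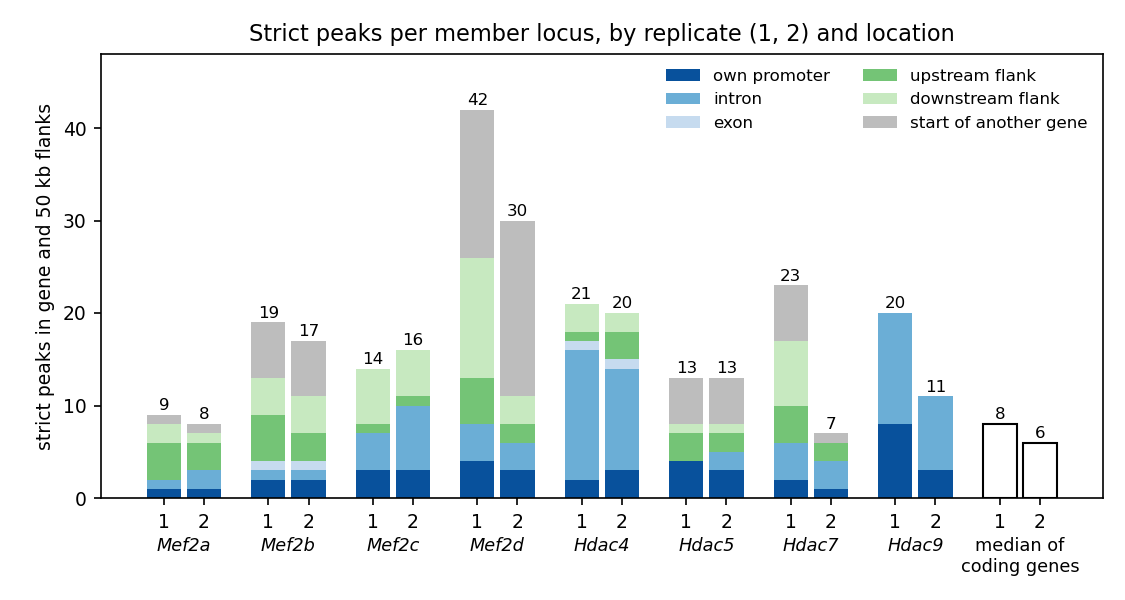
Number of strict peaks in the body of each member and its 50 kb flanks (vertical axis), as stacked bars for replicate 1 and replicate 2, coloured by location, with the median over coding genes as open bars at the right. The bars of Mef2d, 42 and 30, are the tallest, and the bar of Hdac7 is 23 in replicate 1 and 7 in replicate 2.

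Many of the peaks counted for Mef2d lay at the starts of its neighbours. Of its 42 peaks in replicate 1, 16 lay within 1000 bp of the start of another gene, and of its 30 in replicate 2, 19 did. These 35 peaks are not distinct sites, since a site found in both libraries is counted in each. Of the 35, 21 lay near a start of the noncoding gene Gm3764 and 6 near the miRNA gene Mir9-1. The tallest peak in any of the 8 loci was also at the start of a neighbour, the noncoding gene 1700113A16Rik, at 10.7 in replicate 1 and 5.67 in replicate 2. Within the body of Mef2d the centres of 7 peaks of replicate 1 and of 5 peaks of replicate 2 were found. Its tallest intronic peak, at chr3:88152201-88152400, measured 3.24 in replicate 1 and 2.03 in replicate 2.

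At Hdac7 the libraries parted on the downstream side. The downstream flank held 13 peaks in replicate 1 and 1 in replicate 2. Of the 13, 12 had no counterpart, and these ran from 0.682 to 2.12 with a median of 1.12, between chr15:97760076 and chr15:97789060. Of these, 8 lay at or between the starts of Rapgef3 and Slc48a1, and the other 4 lay between the Slc48a1 start and the 3′ end of Hdac7. In the same flank 5685 bases of replicate 1 and 1226 bases of replicate 2 had a false discovery rate under 0.05, so replicate 2 had fewer such bases there but did not lack them. In total 56.7 Mb of replicate 1 and 42.6 Mb of replicate 2 were under that rate. The size of the signal in the flank was not measured by these counts. In the Hdac7 body and upstream flank the 6 peaks of replicate 2 all had a counterpart in replicate 1.

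Hdac9 showed the opposite layout, with all of its peaks inside the gene and none in either flank in either library. In Hdac4 the body held 16 peaks in replicate 1 and 14 in replicate 2, of which introns or exons away from starts held 15 and 12. In Mef2c the peaks of the body ran from 14397 to 151037 bp from the 5′ end in replicate 1, and the downstream flank added 6 peaks in replicate 1 and 5 in replicate 2.

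**Figure D3:**
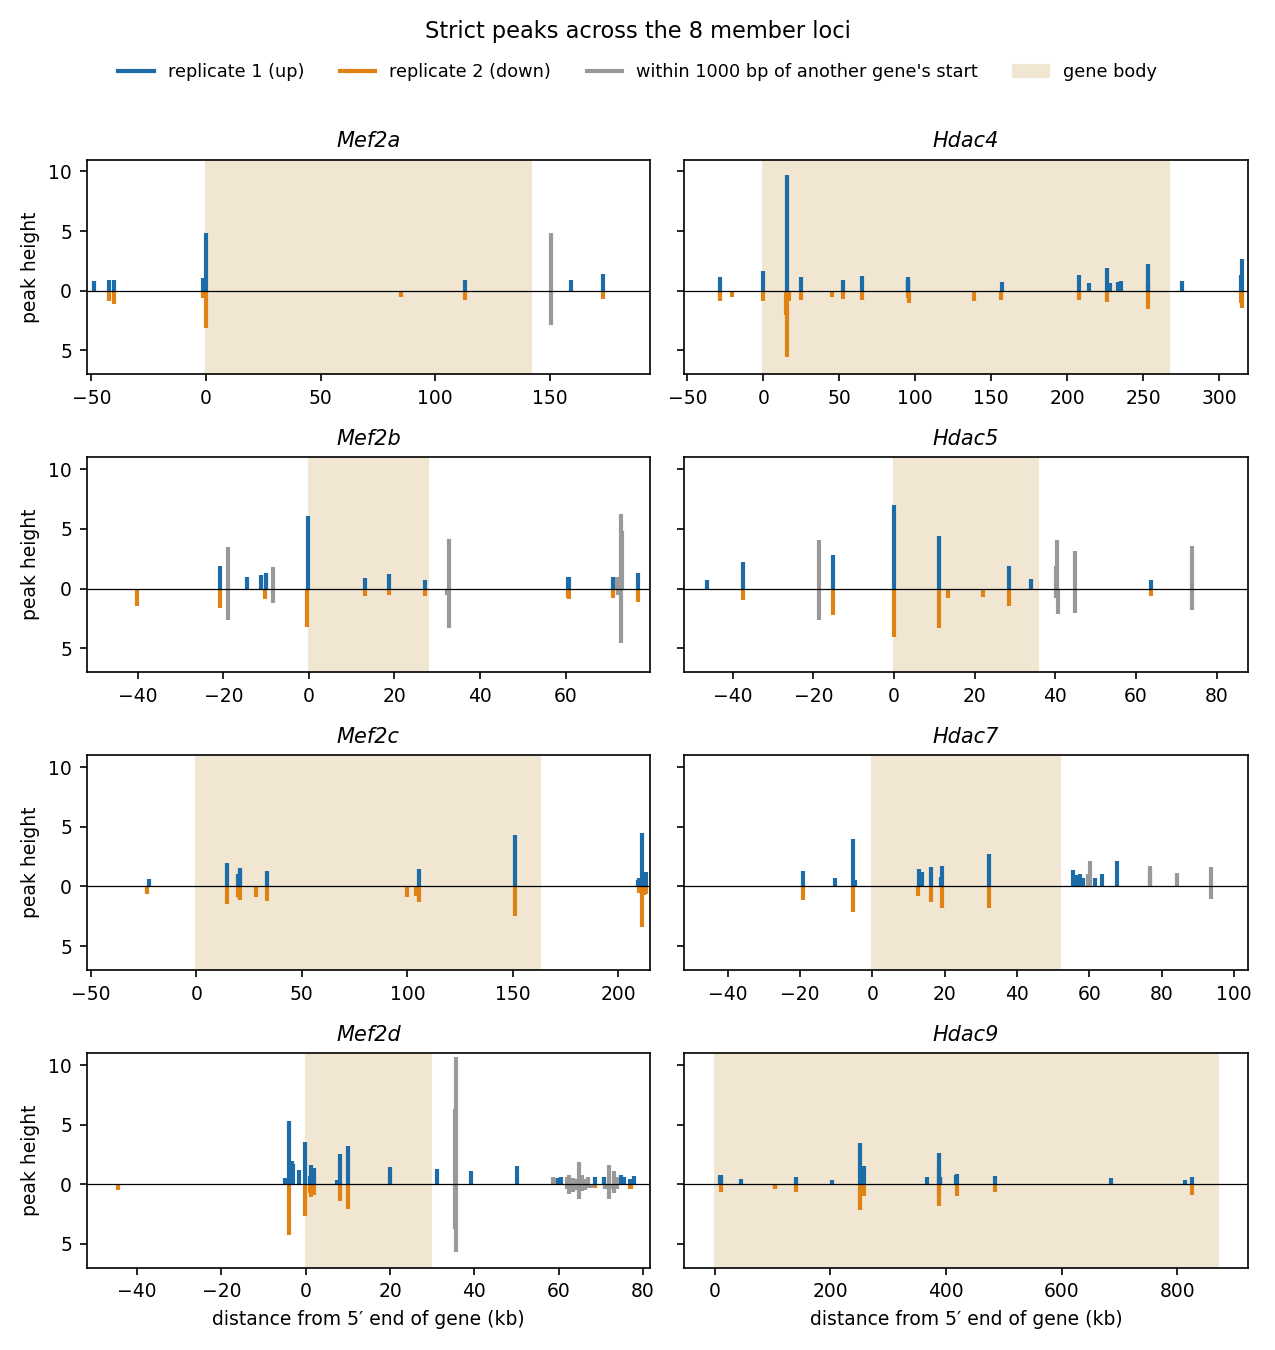
Height of every strict peak (vertical axis, deposited signal) against its distance from the 5′ end of the gene in kb, for each member and its 50 kb flanks, with replicate 1 drawn upward in blue, replicate 2 downward in orange, peaks at the starts of other genes in grey and the gene body shaded. The tallest blue and orange lines stand at promoters in Hdac4 and Hdac5 and away from starts in Mef2c, Mef2d, Hdac7 and Hdac9.

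In 4 of the 8 members (Mef2c, Mef2d, Hdac7 and Hdac9) the tallest peak away from all transcript starts was taller than the tallest promoter peak in both libraries. The share over the 12882 coding genes with a promoter peak in both libraries was 24.3%. A locus with more peaks has more places for a tall one, and this share was not matched for the number of peaks. The loci of these 4 members held more peaks than the medians over coding genes, 8 in replicate 1 and 6 in replicate 2. The sequences of these 4 peaks follow, since each was taller than every promoter peak of the gene it is listed for. Each covers the peak as called in replicate 1, on the strand of the gene, from mm10. Capitals mark, on either strand, the cyclic AMP response element TGACGTCA and the E-box CAGCTG in Mef2d, the AP-1 sequence TGANTCA in Hdac9, the E-boxes CAGCTG and CATCTG in Hdac7 and, in Mef2c, Hdac7 and Hdac9, the core of the CTCF site, read as CCA, any 2 bases, AG, any base and GG. The last of these was added after the sequences were seen.
Mef2c downstream peak, chr13:83715061-83715300, plus strand: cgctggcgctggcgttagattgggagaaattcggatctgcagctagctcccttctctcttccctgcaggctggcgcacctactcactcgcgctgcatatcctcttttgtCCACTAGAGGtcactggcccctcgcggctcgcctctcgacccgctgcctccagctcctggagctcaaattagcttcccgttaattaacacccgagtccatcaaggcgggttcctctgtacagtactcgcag
Mef2d upstream peak, chr3:88138361-88138560, plus strand: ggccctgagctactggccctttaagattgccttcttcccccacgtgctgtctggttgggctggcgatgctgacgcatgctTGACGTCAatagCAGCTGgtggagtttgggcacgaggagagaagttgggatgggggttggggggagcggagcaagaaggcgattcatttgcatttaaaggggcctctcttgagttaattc
Hdac7 upstream peak, chr15:97849741-97849900, minus strand: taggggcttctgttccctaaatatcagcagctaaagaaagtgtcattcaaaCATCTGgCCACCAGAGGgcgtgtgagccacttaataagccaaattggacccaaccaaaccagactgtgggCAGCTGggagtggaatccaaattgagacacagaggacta
Hdac9 intron peak, chr12:34664861-34665040, minus strand: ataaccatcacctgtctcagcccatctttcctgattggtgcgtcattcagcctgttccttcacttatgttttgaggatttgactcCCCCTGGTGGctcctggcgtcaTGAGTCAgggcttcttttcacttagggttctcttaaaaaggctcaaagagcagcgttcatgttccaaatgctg

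The Mef2c peak lay in the downstream flank, 211147 bp from the 5′ end of the gene, and measured 4.46 in replicate 1 and 3.44 in replicate 2 (3.95 ± 0.718, SD, n = 2). An intronic Mef2c peak at chr13:83654981-83655160 was nearly as tall, at 4.30 in replicate 1 and 2.48 in replicate 2. Both stood above every promoter peak of the gene in their library.

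The Mef2d peak lay 3911 bp upstream of the first start and measured 5.31 in replicate 1 and 4.25 in replicate 2 (4.78 ± 0.750, SD, n = 2). It was the tallest of the peaks away from starts in the 8 loci. A cyclic AMP response element, the sequence bound by CREB, was present in 0.906% of all peaks of replicate 1 and in 1% of those of replicate 2, and in 0.414% and 0.393% of those away from starts. CAGCTG, bound by helix-loop-helix factors, was more frequent, in 18.7% and 17.5% of peaks away from starts.

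The Hdac7 peak lay 5319 bp upstream of the first start, at 3.96 in replicate 1 and 2.12 in replicate 2 (3.04 ± 1.30, SD, n = 2). The Hdac9 peak lay in an intron, 252144 bp from the 5′ end, at 3.47 in replicate 1 and 2.19 in replicate 2 (2.83 ± 0.909, SD, n = 2). The AP-1 sequence that it holds is the target of Fos and Jun proteins and was present in 13.8% of peaks away from starts in replicate 1 and in 15.6% in replicate 2.

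In the other members the tallest shared peak away from starts was lower than the promoter peak. It measured 1.36 in replicate 1 and 0.737 in replicate 2 for Mef2a (chr7:67199541-67199700), and 1.86 and 1.64 for Mef2b (chr8:70118769-70118996). For Hdac4 it measured 2.65 in replicate 1 and 1.47 in replicate 2 (chr1:91880201-91880440), and for Hdac5 2.80 and 2.20 (chr11:102245001-102245420). None of these 4 peaks lies in the gene it is listed for, and each could belong to a neighbour. The same holds for the Mef2c, Mef2d and Hdac7 peaks shown above, which lie in the flanks.

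The CTCF core, searched after the sequences had been seen, was present in 5 of these 8 peaks, those of Mef2a, Mef2b, Mef2c, Hdac7 and Hdac9. When the tallest shared peak away from starts was taken for every coding gene in the same way, 22.6% of the 8834 distinct peaks held it, and of all 38701 shared peaks of replicate 1 away from starts 13.8% did. CTCF is the protein that sets many boundaries of chromatin loops. In Mef2a, Mef2c, Hdac7 and Hdac9 a footprint of each library overlapped the core, and in Mef2b none did. In Mef2c, for instance, the core at chr13:83715170-83715179 lay within a footprint of 83715147 to 83715195 in replicate 1 and of 83715148 to 83715196 in replicate 2. Binding by CTCF was not measured.

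Of the member peaks, 60.9% in replicate 1 and 77.9% in replicate 2 overlapped a peak of the other library by at least 1 bp. The shares over all peaks were 66.2% in replicate 1 and 80.8% in replicate 2. The members' share was lowest for Hdac7 in replicate 1, where 7 of 23 peaks had a counterpart, and all 7 Hdac7 peaks of replicate 2 had one. Peaks without a counterpart were lower, with a median height of 0.764 in replicate 1 and 0.545 in replicate 2, against 1.37 and 0.991 for those with one. The tallest of them was the Hdac7 flank peak of 2.12 in replicate 1 and the second promoter peak of Hdac4, at 2.01, in replicate 2.

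A footprint is a short stretch inside a peak that the enzyme cuts less than its surroundings, as under a bound protein. At least 1 footprint lay in 89.4% of member peaks in replicate 1 and in 77.9% in replicate 2, against 86% and 83.3% of all peaks. The member peaks held 456 distinct footprints in replicate 1 and 277 in replicate 2, with median lengths of 10.5 and 10 bp. Among the tallest promoter peaks, that of Hdac4 held 6 footprints in replicate 1 and 7 in replicate 2, that of Hdac5 5 and 4, and that of Mef2a 5 and 6. The Hdac7 promoter peak held 4 in replicate 1 and 1 in replicate 2, and the peak of replicate 2 was narrower, at chr15:97831733-97831805.

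The MEF2 consensus was found in the central 200 bp of 7 of 161 member peaks in replicate 1 (4.35%) and of 10 of 122 in replicate 2 (8.20%), against 2.20% and 3.08% of all peaks. In the members' promoter peaks it was found in 3 of 26 in replicate 1 (11.5%) and in 3 of 19 in replicate 2 (15.8%), and these 3 are the peak of Mef2a and both tall peaks of Hdac5. Over all peaks near a transcript start the shares were 1.02% and 1.23%. Per gene, 2 of the 8 members had the consensus in a promoter peak in each library, against 1.7% of coding genes with a promoter peak in replicate 1 and 1.71% in replicate 2. These counts rest on few peaks, and Hdac5 provides 2 of the 3.

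**Figure D4:**
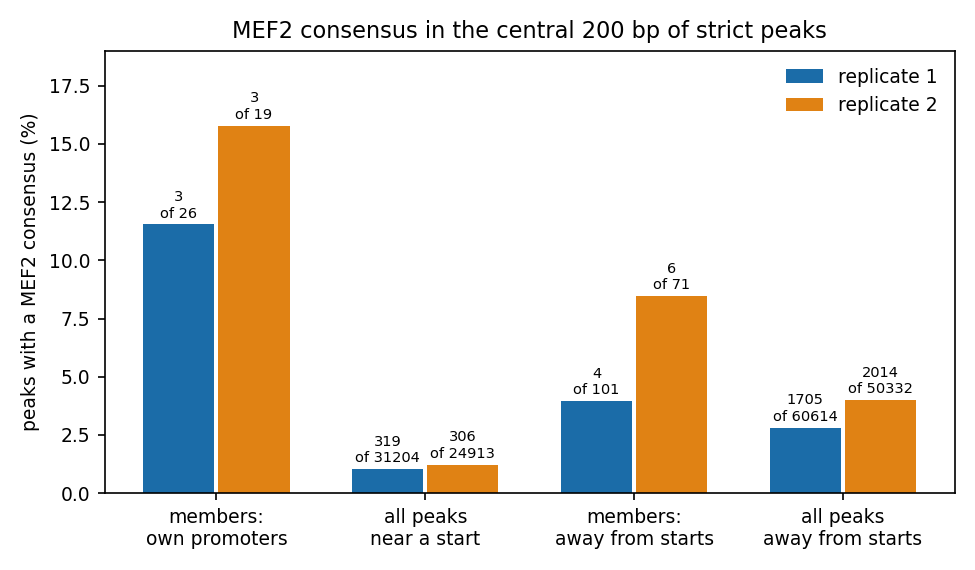
Share of strict peaks with a MEF2 consensus in their central 200 bp (vertical axis, percent) for members and for all peaks, near starts and away from starts, with replicate 1 in blue and replicate 2 in orange and counts above the bars. The bars of the members' own promoters, 11.5% and 15.8%, rest on 3 peaks in each library, against 1.02% and 1.23% of all peaks near a start.

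Another 6 matches lay inside peaks of 1 library. In replicate 1 alone these were a peak of 1.17 located 1570 to 1579 bp upstream of the Mef2d start and an intronic Hdac9 peak of 0.582. In replicate 2 alone they were intronic peaks of Mef2c (0.898), Hdac4 (0.852) and Hdac5 (0.737), and a peak of 0.445 in the downstream flank of Mef2d at the start of AI849053. The remaining peak of replicate 2 counted above, of 0.407 and 85 bp wide in the downstream flank of Mef2c (chr13:83714621-83714705), had its match in the central 200 bp but outside the peak itself. Mef2b was the member with no match in any of its peaks.

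Few footprints covered a match. At the first Hdac5 start a footprint of 29 bp in replicate 1 shared 5 bases with the consensus, and a footprint of 8 bp in replicate 2 shared 4. At the Mef2a start a footprint of 33 bp in replicate 1 shared 4 bases, and none did in replicate 2. At the Hdac7 intron match, in a peak of 2.69 in replicate 1 and 1.84 in replicate 2, a footprint of replicate 2 shared 2 bases. With footprints extended by 5 bp on each side, 1 of 456 in replicate 1 held the whole consensus, that of Hdac5, and 0 of 277 in replicate 2. Over all footprints in strict peaks the shares were 0.0876% and 0.160%. The related CArG box, the target of serum response factor, was in no member peak and in 0.928% and 0.995% of all peaks.

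Of the other motifs searched, the NRF1 core GCGCATGC and the cyclic AMP response element were also found in a larger share of member peaks than of all peaks, each on few peaks. The NRF1 core, bound by nuclear respiratory factor 1, was in 6 of 161 member peaks in replicate 1 (3.73%) and in 5 of 122 in replicate 2 (4.10%), against 1.38% and 1.50% of all peaks. The cyclic AMP response element was in 3 member peaks of each library, 1.86% in replicate 1 and 2.46% in replicate 2, against 0.906% and 1% of all peaks. Of these, only the Mef2d upstream peak lay away from starts. The others lay at starts of other genes, Lsm12 and Gm3764 with Mir3093. Of all peaks near a start, 1.86% in replicate 1 and 2.23% in replicate 2 held the element. The shares of the more frequent motifs lay closer to those over all peaks. The GC box was in 34.6% of the members' promoter peaks in replicate 1 and in 52.6% in replicate 2, against 39.6% and 42% of all peaks near a start. Away from starts, AP-1 was in 9.90% of member peaks in replicate 1 and in 15.5% in replicate 2, against 13.8% and 15.6% of all peaks there. CAGCTG was in 22.8% and 25.4% of the member peaks away from starts, against 18.7% and 17.5% of all, and CATCTG in 22.8% and 28.2%, against 25% and 26.5%. The NFI sequence TTGGCA, bound by nuclear factor I proteins, was in 19.8% and 21.1%, against 17.7% and 18.8%.

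The introns of the larger genes held further peaks that both libraries shared. In Hdac4 the tallest was chr1:91942661-91942860, at 2.23 in replicate 1 and 1.55 in replicate 2, and others were chr1:91969121-91969320, at 1.93 in replicate 1 and 0.983 in replicate 2, and chr1:92100021-92100340, at 1.17 and 1.01. In Mef2c a peak before the internal promoter, chr13:83518221-83518640, measured 1.94 in replicate 1 and 1.46 in replicate 2, more than the promoter peaks themselves. The Hdac9 body held another shared peak, chr12:34658301-34658500, at 1.53 and 0.945, on the side of the internal promoter from the tallest one. The Mef2a body, of 141.696 kb, held 1 shared intronic peak, of 0.851 in replicate 1 and 0.760 in replicate 2. These peaks were named after their values were seen.

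The genes listed as acting on the pathway all had a promoter peak in both libraries. Among all protein-coding genes the share with a promoter peak was 63.4% in replicate 1 and 59.3% in replicate 2. Among 20 genes of signalling to class IIa deacetylases and MEF2, 20 had a promoter peak in each library, with a median tallest peak of 3.38 in replicate 1 and 2.34 in replicate 2. The tallest were Mapk14, the p38 kinase that phosphorylates MEF2, at 7.18 in replicate 1 and 5.31 in replicate 2 in a peak also near the start of Slc26a8, and Ppp3ca, a catalytic subunit of calcineurin, at 7.003 and 4.48. The lowest were the protein kinase D genes Prkd1, at 0.782 and 0.538, and Prkd3, at 0.776 and 0.630, and this pair was named after its values were seen. Of the 20 signalling genes, 2 had a MEF2 consensus in a promoter peak in replicate 1 and 3 in replicate 2. The shares over coding genes with a promoter peak were 1.7% and 1.71%. Camk2b and Sik2 had it in both libraries and Ppp3cb in 1 library.

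All 19 genes of corepressors, coactivators and export partners also had a promoter peak in each library, with medians of 4.37 in replicate 1 and 2.70 in replicate 2. Xpo1, the exportin that carries phosphorylated class IIa deacetylases out of the nucleus, had the tallest at 9.91 in replicate 1 and 5.54 in replicate 2. Ywhaz, a 14-3-3 protein that binds them, followed by mean height at 6.95 and 4.56. Rfxank, an ankyrin-repeat protein that binds class IIa deacetylases, shares its tallest promoter peak with Mef2b. A MEF2 consensus in a promoter peak was found for 2 of the 19 in replicate 1 and 3 in replicate 2. The shares over coding genes with a promoter peak were 1.7% and 1.71%. Cabin1, a MEF2 corepressor, and Ywhah, another 14-3-3 gene, had it in both libraries and Crebbp in 1 library.

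The 7 other classical histone deacetylases (Hdac1, Hdac2, Hdac3, Hdac6, Hdac8, Hdac10 and Hdac11) all had a promoter peak in each library, with medians of 3.50 in replicate 1 and 2.29 in replicate 2. Hdac3 is also counted among the corepressors, coactivators and export partners. The tallest were Hdac3, the catalytic partner in the corepressor complexes that class IIa enzymes recruit, at 4.37 in replicate 1 and 2.29 in replicate 2 in a peak also near the start of Rell2, and Hdac1, at 4.16 and 2.46. The 4 class IIa genes spanned a wider range than these. Hdac4 and Hdac5 stood above the tallest of them, and Hdac7 lay below all but Hdac8 in replicate 1 and below all of them in replicate 2. A MEF2 consensus in a promoter peak was found for 0 of these 7 genes in either library. Over coding genes with a promoter peak it was found for only 1.7% in replicate 1 and 1.71% in replicate 2, so the count of 0 does not set these genes apart.

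Of 8 neuronal genes known as MEF2 targets, 8 had a promoter peak in replicate 1 and 6 in replicate 2, against 63.4% and 59.3% of all protein-coding genes. Klf6 was tallest at 7.41 in replicate 1 and 5.59 in replicate 2, followed by Pcdh10, a protocadherin in MEF2-driven synapse elimination, at 6.63 and 4.89. Bdnf, which encodes a neurotrophin, had a promoter peak of 1.76 in replicate 1 and none in replicate 2. Of the 8, 2 held a MEF2 consensus in a promoter peak in replicate 1 and 1 in replicate 2. The shares over coding genes with a promoter peak were 1.7% and 1.71%. Klf6 held it in both libraries and Nr4a1 in 1 library.

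The larger peak set came from replicate 1, with 91818 strict peaks and 394531 footprints, against 75245 and 241645 in replicate 2. Among markers of cortical excitatory neurons, 6 of 6 genes in replicate 1 and 5 of 6 in replicate 2 had a promoter peak, among them Neurod2 at 2.02 and 1.44. Astrocyte markers had 5 of 6 in each, oligodendrocyte markers 3 and 2 of 6, inhibitory neuron markers 3 and 2 of 6 and endothelial markers 3 and 0 of 6. Microglial markers had 0 of 6 in both libraries. Markers of heart and skeletal muscle, the other tissues in which MEF2 and class IIa deacetylases are best known, had 3 and 2 of 8. In tissue, fewer cells with an open site and less opening per cell cannot be told apart, also for low peaks such as those of Mef2c and Hdac7, and the part of cell composition in the heights was not tested.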

How the data were processed

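DNase-seq peaks, rates per base and footprints of 2 libraries of mouse right cerebral cortex were used. Per the deposited descriptions, files were derived library by library, with no pooling, from reads filtered after alignment to mm10. For the aligner, the callers and their settings, no name is given in the sources used here. Depth is not stated either, so no counting interval can be put on a peak. The deposited peak height is a signal whose scale is not stated. The q-value file deposited by the authors lists false discovery rates under 0.05. The deposited footprints carry the constant 0.01 and only their intervals were used.

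The stricter peak set of each library was joined to GENCODE M21 with 1000 bp around starts and 50000 bp flanks. A counterpart shares at least 1 bp. Motifs were searched on both strands in the central 200 bp of peaks (GRCm38.p6) and in footprints extended by 5 bp. Sequences spelled out in the report were searched beside the MEF2 consensus, the CArG box, the NRF1 core GCGCATGC and the NFI sequence TTGGCA, and the CTCF core was added later. Scripts ran in Python 3.11.15 with numpy 2.4.6 and pandas 2.3.3. The finding of promoter peaks, locus peaks, counterparts and motifs was tested on simulated peaks and motifs, and the other steps were not. The members and lists were chosen with earlier results of these data known. The text names all members, for each the tallest promoter peak and the tallest shared peak away from starts, and of each list the 2 tallest by mean height. Other windows, flanks, overlaps, peak sets and motif forms, and each library alone, were tried. Some genes of the lists are not reported here by name.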

Additional observations from a re-analysis of the deposited data

How the results depend on the processing

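As means of both libraries, the values were 8 members with a promoter peak, 141.5 peaks in the loci, 69.4% with a counterpart, 83.7% with a footprint and 8.5 with a MEF2 consensus. Counting the 5′ end of each gene alone left 5 members with a promoter peak. The number of peaks in the loci was 60.5 with no flanks, 90.5 with 20000 bp flanks, 221 with 100000 bp flanks, 245.5 in the broader peak set and 80.5 among the taller 50% of the strict peaks. It was 126.5 without Hdac7, 105.5 without Mef2d and 136.5 with overlapping peaks merged, which were chosen after seeing the data. The share with a counterpart was 53.3% when at least 50% of both peaks had to overlap, and the share with a footprint was 95.7% among the taller 50%. The count with a MEF2 consensus was 5.5 in the central 100 bp, 5.5 with the narrower consensus and 13.5 in the broader set. With 1 library left out, the number of members with a promoter peak was 8, the number of peaks ran from 122 to 161, the share with a counterpart from 60.9% to 77.9%, that with a footprint from 77.9% to 89.4% and the MEF2 count from 7 to 10. By gene, 50 of 56 alternative values of the tallest promoter peak and 39 of 64 alternative peak counts moved by less than the spread or by less than 1.5-fold. For the heights this count says little. Leaving 1 library out always moves a mean of 2 by less than their SD. The broader set and the taller 50% held the same tallest promoter peak for every member. With a window of 2500 bp the tallest peak was 3.39 for Mef2c and 2.27 for Hdac7 as means, since intronic peaks then fell in the window. No paired analysis was possible because there is 1 group. Depth is not stated, and whether peaks of replicate 1 that replicate 2 lacks fall below its detection was not tested.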
